A study of Mus musculus with 16 samples.

Results

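The hair cell ribbon synapse was followed through 9 genes: Otof, Cabp2, Slc17a8, Cacna1d, Cacnb2, Ctbp2, Rims2, Bsn and Pclo. They were taken by gene symbol from the 21220 genes of the authors' normalized table. All 9 were found, and all 9 passed the filter on low counts, among 17125 genes tested. The RNA came from organs of Corti of C57BL/6 mice at postnatal day 0, kept in culture for 3.5 days. The 4 groups held 4 libraries each and were Rest(+/deltaExon4) cultures with FK228, Rest(+/deltaExon4) cultures with solvent, wild-type cultures with FK228 and wild-type cultures with solvent. Rest(+/deltaExon4) mice carry 1 Rest allele without exon 4 and are called heterozygous below. FK228 (romidepsin), an inhibitor of class I histone deacetylases, was given at 2 nM, and the solvent was 0.1% DMSO, each during days 1 to 1.5 and again during days 3 to 3.5 of culture. Each library pooled RNA from 6 to 8 cultures. Whether the pools of a group stem from different litters is not stated in the labels, and p-values therefore measure only how far pools vary.

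The ribbon synapse joins the hair cell to the afferent neurons of the spiral ganglion. Depolarization opens L-type calcium channels beneath the ribbon, a body built of RIBEYE that holds glutamate-filled vesicles, and otoferlin couples the calcium signal to vesicle fusion. In humans, recessive variants of OTOF and of CABP2 cause hearing loss. REST silences neuronal genes outside neurons by bringing histone deacetylases to their control elements. In mice, hair cells are known to splice exon 4 into Rest, which yields a REST protein without repressor activity.

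The heterozygous libraries held 12361027 to 15674930 gene counts and the wild-type libraries 16224586 to 23611571, so depth differed between the genotypes. Levels are given as CPM, counts scaled to a common library size with TMM factors, which set the bulk of genes equal between libraries. Rest itself had 75.8 to 87.3 CPM in heterozygous FK228 libraries, 78.1 to 94.8 in heterozygous solvent libraries, 69.9 to 79.9 in wild-type FK228 libraries and 75.2 to 86.4 in wild-type solvent libraries. A count over the whole gene does not resolve the missing exon, so it does not check the genotype. Summed Y-linked transcripts had 78.7 to 213 CPM in heterozygous FK228 and 108 to 262 in heterozygous solvent libraries. They had 0 to 227 CPM in wild-type FK228 and 0 to 154 in wild-type solvent libraries. Wild-type FK228 library 2 and wild-type solvent library 4 were at 0, so sex was not balanced over the pools. All 29 hair cell markers outside the 9 genes were detected in every group, so the cultures held hair cells by their RNA. Fewer hair cells and less RNA per hair cell cannot be told apart in these bulk libraries. The share of reads outside annotated genes was 10.4% to 20.8%, and it was lowest in heterozygous solvent library 4 (10.4%) and wild-type solvent library 1 (10.8%). The share of ERCC spike-in counts was 0.312% to 0.393% in heterozygous FK228 libraries and 0.156% to 0.237% in the other 12. With spike-in scaling the all-gene median of the log2 fold change moved to -0.18 for genotype in solvent, -0.72 for FK228 in heterozygous, -0.16 for FK228 in wild type, -0.74 for genotype with FK228, -0.89 for heterozygous FK228 against wild-type solvent and -0.56 for the interaction. Changes are stated against the bulk of transcripts for that reason.

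Promoter windows of 250 bases before to 50 bases after a start site (RefSeq, GRCm38.p6) were found for 7 of the 9 genes, in 12 windows, and not for Otof and Rims2. Both Cabp2 starts are shown because Cabp2 differed between the genotypes. The upstream start of Slc17a8, the start of the RIBEYE transcript of Ctbp2 and the Bsn start are shown because these genes changed with FK228, a choice made after their values were seen. Capitals mark matches to the motifs named below, on either strand.
Cabp2, upstream start, chr19:4082238-4082537, plus strand: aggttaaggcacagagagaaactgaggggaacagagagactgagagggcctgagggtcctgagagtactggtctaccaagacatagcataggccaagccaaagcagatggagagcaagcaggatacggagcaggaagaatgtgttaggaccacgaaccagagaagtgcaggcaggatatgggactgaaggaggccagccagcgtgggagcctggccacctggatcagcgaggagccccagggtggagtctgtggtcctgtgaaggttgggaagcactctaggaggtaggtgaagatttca
Cabp2, downstream start, chr19:4083269-4083568, plus strand: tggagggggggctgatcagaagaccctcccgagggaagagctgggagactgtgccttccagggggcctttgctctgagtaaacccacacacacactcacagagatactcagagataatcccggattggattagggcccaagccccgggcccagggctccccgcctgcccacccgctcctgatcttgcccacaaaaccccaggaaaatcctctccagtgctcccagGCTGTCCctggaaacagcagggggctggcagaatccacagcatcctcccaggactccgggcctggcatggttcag
Slc17a8, upstream start, chr10:89621200-89621499, minus strand: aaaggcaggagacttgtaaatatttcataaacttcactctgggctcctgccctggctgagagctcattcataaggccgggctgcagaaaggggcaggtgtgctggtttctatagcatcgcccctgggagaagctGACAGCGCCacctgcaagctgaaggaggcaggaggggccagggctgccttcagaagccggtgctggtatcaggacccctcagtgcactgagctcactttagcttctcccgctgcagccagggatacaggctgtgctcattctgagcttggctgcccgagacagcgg
Ctbp2, RIBEYE start, chr7:133015198-133015497, minus strand: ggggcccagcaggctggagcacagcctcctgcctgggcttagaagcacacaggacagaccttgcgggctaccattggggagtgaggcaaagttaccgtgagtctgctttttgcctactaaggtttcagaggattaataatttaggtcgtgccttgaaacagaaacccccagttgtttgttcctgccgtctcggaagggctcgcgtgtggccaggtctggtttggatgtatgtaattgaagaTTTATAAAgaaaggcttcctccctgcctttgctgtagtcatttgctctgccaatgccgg
Bsn, chr9:108190334-108190633, minus strand: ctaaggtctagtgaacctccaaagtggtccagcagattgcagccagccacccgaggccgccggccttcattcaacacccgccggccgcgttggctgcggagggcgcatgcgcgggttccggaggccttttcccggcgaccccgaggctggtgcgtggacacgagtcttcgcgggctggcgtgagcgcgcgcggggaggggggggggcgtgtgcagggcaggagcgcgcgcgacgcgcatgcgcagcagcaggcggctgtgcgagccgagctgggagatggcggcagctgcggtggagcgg

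The motifs were stretches of RE1, the element that REST binds, and 2 core promoter motifs, each searched on both strands. The left part of RE1, TTCAGCACC, was in 0.371% of 32851 windows of this length and in none of the 12 windows of these genes. The right part was searched as GGACAGC, found in 6.56% of all windows, and as GACAGCGCC, found in 0.326%; the 2 overlap in the letters from GA to GC. A match to GGACAGC stood in the downstream Cabp2 window on the reverse strand, with its first base at position -25 from the start site. GACAGCGCC stood in the upstream Slc17a8 window on the forward strand, at position -116. The TATA box letters TATAAA, found in 13.6% of all windows, stood on both strands, overlapping, at 7 and 9 bases before the RIBEYE start, and they were also in a Cacna1d window. The GC box letters GGGCGG, in 35.7% of all windows, were in windows of Cacna1d, Cacnb2 and Pclo. The Bsn window held none of these letters, and 72.3% of its bases were G or C, against 52% in the RIBEYE window. A match is a description of the letters and not evidence of binding.

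Otof and Cabp2 were lower in heterozygous cultures than in wild type, with solvent and with FK228. FK228 lowered Otof and Ctbp2 in both genotypes, and it raised Bsn in both. Cabp2 and Slc17a8 were called lower with FK228 in wild type only, but for neither did the drug effect differ between the genotypes by the test. Cacna1d, Cacnb2, Rims2 and Pclo were not called in any of the 6 comparisons in the edgeR fit to all 16 libraries with TMM factors and no further term. Between the genotypes in solvent 2 of 9 genes were lower and 0 higher (edgeR quasi-likelihood test, Benjamini-Hochberg adjusted p under 0.05), against 0.823% lower and 1.2% higher of all genes tested. With FK228 the same 2 of 9 were lower in heterozygous cultures and 0 higher, against 0.928% lower and 1.21% higher of all genes. With spike-in scaling 2 of 9 were lower and 0 higher in solvent, against 1.12% lower and 0.607% higher of all genes. With FK228 that scaling gave 5 lower and 0 higher of the 9, against 74.5% lower and 0.561% higher of all genes.

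FK228 moved a large share of all genes, and the share of these 9 was near it. In heterozygous cultures it lowered 2 and raised 1 of the 9, against 24.7% lowered and 23.8% raised of all genes, and with spike-in scaling it lowered 5 and raised 1, against 62.6% lowered and 4.71% raised of all genes. In wild type it lowered 4 and raised 1, against 25.3% lowered and 23.7% raised of all genes, and with spike-in scaling these were again 4 and 1, against 26.4% lowered and 11.7% raised. Heterozygous FK228 cultures set against wild-type solvent cultures had 4 lower and 1 higher, against 25.9% lower and 24.9% higher of all genes, and with spike-in scaling 8 lower and 1 higher, against 71.3% lower and 3.78% higher. The FK228 effect differed between the genotypes for 0 of 9 genes in edgeR, with 1 at an unadjusted p under 0.05, and 0.0234% of all genes passed. DESeq2 called 0 with 2 at an unadjusted p under 0.05, and limma voom called 0 with 1. The comparisons share libraries, since the heterozygous solvent libraries enter the genotype and the drug contrast alike.

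**Figure D1:**
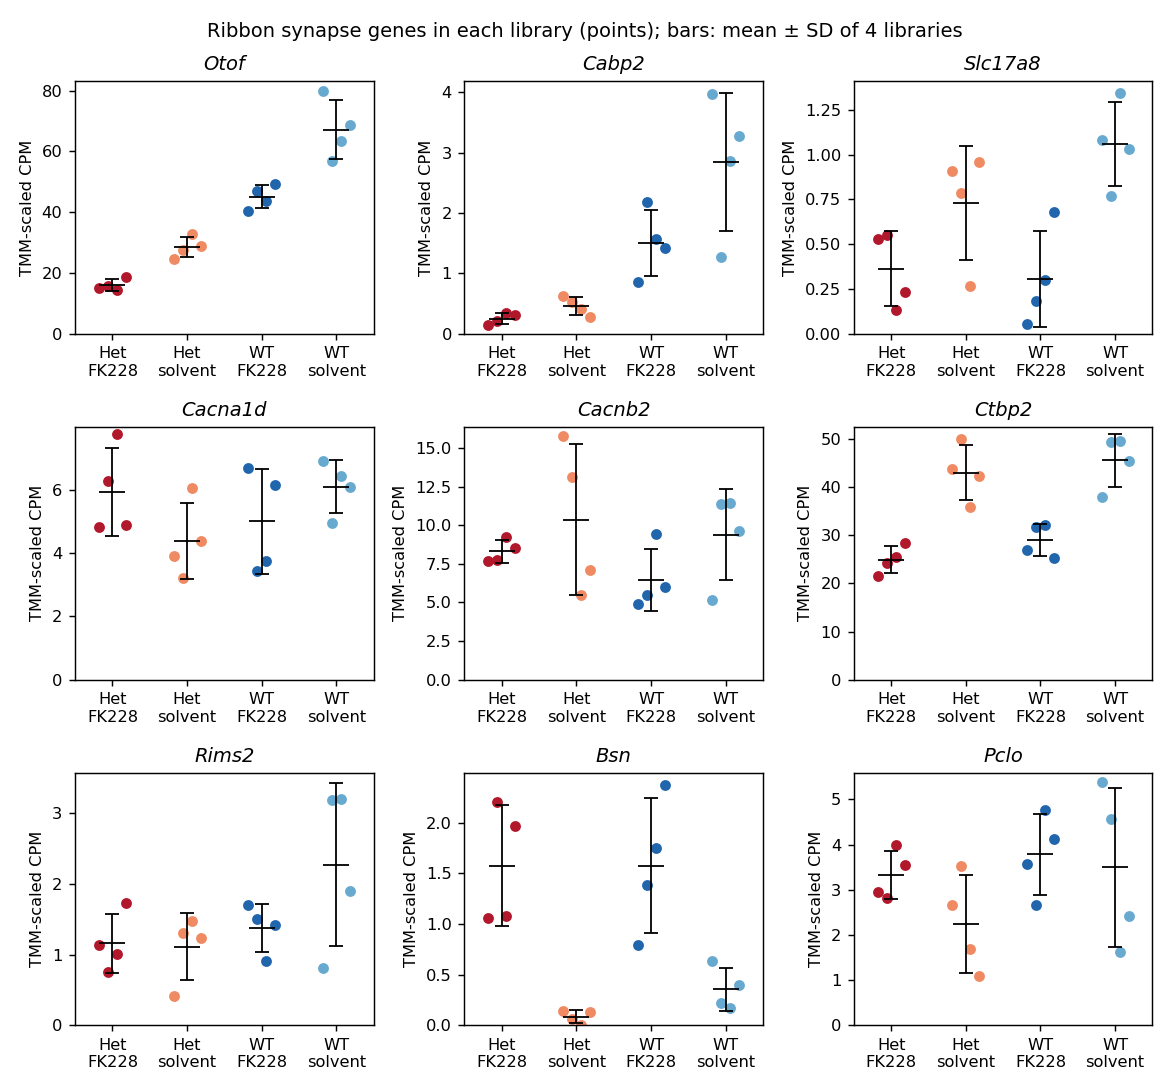
Level of each of the 9 genes in TMM-scaled CPM (vertical axis, from 0) in the 4 groups (horizontal axis, Het for heterozygous and WT for wild type); points are libraries and bars are mean ± SD of 4. Otof separates all 4 groups, from 14.5 to 18.7 CPM in heterozygous FK228 libraries up to 56.9 to 79.9 CPM in wild-type solvent libraries, and Bsn is high in both FK228 groups.

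Otof (chr5:30367062-30461932, minus strand, GRCm38, GENCODE M21) encodes otoferlin, the calcium-binding C2-domain protein that vesicle fusion in hair cells depends on. It had 15.2, 15.9, 14.5 and 18.7 CPM in heterozygous FK228 libraries, 24.8, 27.6, 32.8 and 28.9 in heterozygous solvent libraries, 40.5, 47.1, 43.6 and 49.3 in wild-type FK228 libraries and 79.9, 56.9, 63.3 and 68.6 in wild-type solvent libraries. No library of any group overlapped with another group. From lowest to highest, the means were 16.04 ± 1.83 CPM in heterozygous FK228 (SD, n = 4), 28.5 ± 3.34 in heterozygous solvent, 45.1 ± 3.84 in wild-type FK228 and 67.2 ± 9.72 in wild-type solvent libraries, and the ranges of mean ± SD of neighbours did not overlap.

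The log2 fold change of Otof, heterozygous over wild type, was -1.24 ± 0.11 (SE; 2.36-fold lower) in solvent, with an edgeR adjusted p of 2.12e-06. With FK228 it was -1.49 ± 0.12 (2.81-fold lower, edgeR adjusted p = 2.44e-07). FK228 over solvent gave -0.83 ± 0.12 in heterozygous cultures (edgeR adjusted p = 1.42e-05) and -0.57 ± 0.11 in wild type (edgeR adjusted p = 0.000314). These drug effects differed by -0.26, with a 95% interval of -0.60 to 0.08 (edgeR adjusted p = 0.925). With spike-in scaling the difference was -0.83 and was called (edgeR adjusted p = 0.0267). Under that scaling 23.7% of all genes were called lower and 0.0526% higher for this difference, with an all-gene median of -0.56. Heterozygous FK228 cultures stood at 23.9% of the wild-type solvent mean, heterozygous solvent cultures at 42.5% and wild-type FK228 cultures at 67.2%. FK228 moved Otof in heterozygous cultures farther from the wild-type solvent level, to a log2 fold change of -2.07 ± 0.12 (edgeR adjusted p = 3.49e-10).

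Cabp2 (chr19:4081578-4087340, plus strand) encodes a calmodulin-like protein that limits inactivation of the hair cell calcium channel. The counts were low, with 2, 3, 5 and 4 reads in heterozygous FK228 libraries, 9, 8, 6 and 4 in heterozygous solvent libraries, 15, 36, 26 and 25 in wild-type FK228 libraries and 88, 23, 51 and 57 in wild-type solvent libraries. In CPM the means were 0.253 ± 0.0885 in heterozygous FK228, 0.458 ± 0.153 in heterozygous solvent, 1.50 ± 0.544 in wild-type FK228 and 2.85 ± 1.15 in wild-type solvent libraries (SD, n = 4 each). Every heterozygous library lay below every wild-type library, while the FK228 and solvent libraries overlapped within each genotype.

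The log2 fold change of Cabp2 between the genotypes was -2.62 ± 0.405 in solvent (6.15-fold lower, edgeR adjusted p = 0.00103) and -2.53 ± 0.461 with FK228 (5.78-fold lower, edgeR adjusted p = 0.00558). The ratio of summed counts, scaled for depth, was 0.158 in solvent, with an exact 95% interval of 0.102 to 0.236, and 0.170 (0.0897 to 0.298) with FK228. These intervals cover counting error only. In heterozygous cultures the log2 fold change with FK228 was -0.83 ± 0.53 (edgeR adjusted p = 0.204), with 14 reads in all FK228 libraries and 27 in all solvent libraries. In wild type it was -0.92 ± 0.35, past the threshold at an edgeR adjusted p of 0.0362. That call was lost when wild-type solvent library 1, 3 or 4 or wild-type FK228 library 1, 4 or 7 was left out, with adjusted p from 0.0628 to 0.132 and log2 fold changes from -0.95 to -0.71. It was also lost under 7 of 13 other settings, with adjusted p up to 0.348. The drug effects of the genotypes differed by 0.09, with a 95% interval of -1.56 to 1.74 (edgeR adjusted p = 0.998). With spike-in scaling the value in heterozygous cultures was -1.55 and was called (edgeR adjusted p = 0.0164), where 62.6% of all genes were lower. Heterozygous FK228 cultures stood at 8.88% of the wild-type solvent mean (log2 fold change -3.45 ± 0.45, edgeR adjusted p = 4.49e-06).

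The channel subunits did not pass the test unless a term was added, a library left out or the scaling changed. Cacna1d (chr14:30039939-30491455, minus strand) encodes the pore-forming subunit of the L-type channel that carries most calcium current of inner hair cells. It had 4.84, 6.27, 7.77 and 4.88 CPM in heterozygous FK228 libraries, 3.92, 3.21, 6.06 and 4.38 in heterozygous solvent libraries, 6.70, 3.45, 3.74 and 6.17 in wild-type FK228 libraries and 6.92, 4.95, 6.45 and 6.09 in wild-type solvent libraries. All 4 groups overlapped. The log2 fold change between genotypes in solvent was -0.48, with a 95% interval of -0.99 to 0.04 (edgeR adjusted p = 0.503). With FK228 it was 0.25, with an interval of -0.27 to 0.76, and both intervals exclude the log2 fold change of Otof in solvent. FK228 over solvent gave 0.44 ± 0.25 in heterozygous cultures (edgeR adjusted p = 0.154) and -0.28 ± 0.24 in wild type (edgeR adjusted p = 0.349). In heterozygous cultures the value was 0.68, and was called (adjusted p = 0.0279), with the share of reads outside genes as a term, an alternative chosen after the data were seen, and -0.27 (adjusted p = 0.307) with spike-in scaling. The drug effect differed between genotypes by 0.72 ± 0.34 (interval -0.004 to 1.45, edgeR adjusted p = 0.860).

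Cacnb2 (chr2:14603088-14987908, plus strand) encodes an auxiliary beta subunit that brings the channel to the membrane. It had 7.71, 7.72, 9.26 and 8.50 CPM in heterozygous FK228 libraries, 15.8, 13.1, 5.46 and 7.12 in heterozygous solvent libraries, 4.88, 5.50, 9.42 and 6.00 in wild-type FK228 libraries and 5.15, 11.4, 11.4 and 9.60 in wild-type solvent libraries. The heterozygous solvent libraries spanned the widest range, and the low libraries of the solvent groups were those with few reads outside genes. The share of reads outside genes was 19.7%, 17.9%, 10.4% and 12.9% in the heterozygous solvent libraries, and 10.8%, 16.3%, 16.3% and 16.2% in the wild-type solvent libraries, in the order of the CPM values.

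Cacnb2 was not called for FK228 in heterozygous cultures (log2 fold change -0.32 ± 0.30, edgeR adjusted p = 0.402) or in wild type (-0.54 ± 0.30, edgeR adjusted p = 0.149). With spike-in scaling it was called in heterozygous cultures (-1.10, edgeR adjusted p = 0.00952), where 62.6% of all genes were lower. That scaling also called it for heterozygous FK228 against wild-type solvent, where 71.3% of all genes were lower. The share of reads outside genes was added as a term after the data were seen. With it the values were -0.70 (edgeR adjusted p = 0.000371) in heterozygous cultures and -1.07 (edgeR adjusted p = 6.43e-06) in wild type. Against wild-type solvent cultures, heterozygous FK228 cultures gave -0.17 ± 0.30, and -0.68 with that term (adjusted p = 0.000558). Without wild-type solvent library 1 the value in wild type was -0.75 (adjusted p = 0.0419). Between the genotypes in solvent the log2 fold change was 0.15 ± 0.30 and with the term 0.02. Other annotated genes and pseudogenes overlap Cacnb2, Cacna1d, Bsn and Pclo on either strand, and the counts used here did not separate strands.

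**Figure D2:**
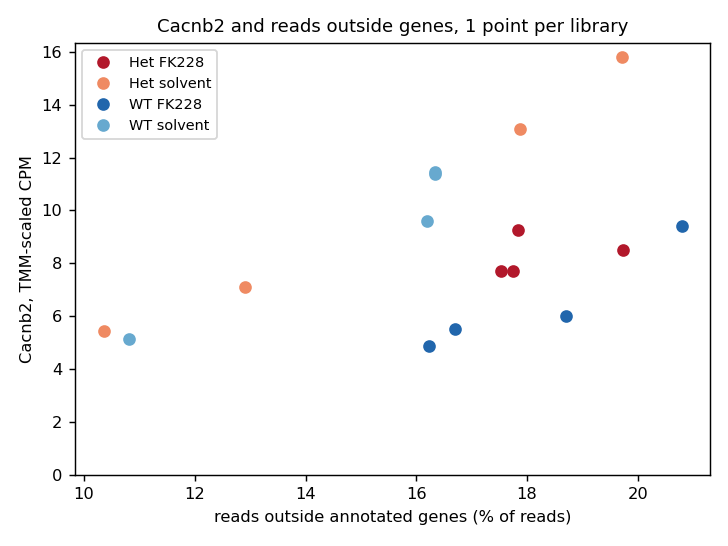
Cacnb2 level in TMM-scaled CPM (vertical axis) against the share of reads outside annotated genes in percent (horizontal axis), 1 point per library, coloured by group. Heterozygous solvent library 4 (10.4%, 5.46 CPM) and wild-type solvent library 1 (10.8%, 5.15 CPM) lie at the lower left, and heterozygous solvent library 1 (19.7%, 15.8 CPM) at the top.

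Slc17a8 (chr10:89574020-89621253, minus strand) encodes VGLUT3, the transporter that loads glutamate into the vesicles of hair cells. It was among the lowest of the 9 genes, with 7, 8, 2 and 3 reads in heterozygous FK228 libraries, 13, 12, 4 and 14 in heterozygous solvent libraries, 1, 3, 5 and 12 in wild-type FK228 libraries and 24, 14, 24 and 18 in wild-type solvent libraries. In wild type no FK228 library reached the lowest solvent library in CPM (0.0568 to 0.679 in FK228 libraries against 0.770 to 1.35 in solvent libraries), while the heterozygous groups overlapped. FK228 over solvent gave -0.99 ± 0.57 in heterozygous cultures (edgeR adjusted p = 0.162) and -1.77 ± 0.54 in wild type (3.40-fold lower, edgeR adjusted p = 0.0116). Without wild-type FK228 library 7, the highest of its group, the value in wild type was -2.52 (adjusted p = 0.00236). The difference of these effects was 0.77, with a 95% interval of -0.91 to 2.45. With spike-in scaling the value in heterozygous cultures was -1.71 and was called (edgeR adjusted p = 0.0200), where 62.6% of all genes were lower. Heterozygous FK228 against wild-type solvent gave -1.53 ± 0.55 (edgeR adjusted p = 0.0264), and this call was lost without heterozygous FK228 library 4 or 5 or wild-type solvent library 3, with adjusted p from 0.0657 to 0.0859. The genotypes in solvent differed by -0.53 ± 0.50 (edgeR adjusted p = 0.802), and the interval of -1.58 to 0.51 includes the size seen for Otof.

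Ctbp2 (chr7:132987563-133124354, minus strand) gives rise to RIBEYE, the main protein of the ribbon, and to the transcriptional corepressor CTBP2, which many cell types make. In GENCODE M21 the transcript Ctbp2-214 codes for 988 residues from a start inside the gene, and Ctbp2-201, from an upstream start, codes for 445. A count per gene adds them together, so the values below are not those of RIBEYE alone, and Fgfr2 overlaps Ctbp2 on the same strand. Ctbp2 had 21.5, 24.3, 25.5 and 28.4 CPM in heterozygous FK228 libraries, 43.8, 49.95, 36.0 and 42.3 in heterozygous solvent libraries, 27.0, 31.7, 32.1 and 25.3 in wild-type FK228 libraries and 37.9, 49.4, 49.6 and 45.4 in wild-type solvent libraries. FK228 and solvent libraries did not overlap in either genotype, and the genotypes overlapped within each treatment.

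FK228 over solvent lowered Ctbp2 by a log2 fold change of -0.79 ± 0.12 in heterozygous cultures (1.72-fold lower, edgeR adjusted p = 3.31e-05) and -0.65 ± 0.12 in wild type (1.57-fold lower, edgeR adjusted p = 0.000189). Between the genotypes in solvent the log2 fold change was -0.08, with a 95% interval of -0.33 to 0.16, and with FK228 it was -0.22, with an interval of -0.47 to 0.04. Both intervals lie short of the Otof difference. Some marker sets of other cell types that the cultures hold also differed with the drug, while the supporting cell set overlapped. Summed mesenchyme markers (8 genes) had 1438 to 1778 CPM in heterozygous FK228 libraries against 3045 to 4415 in heterozygous solvent libraries, and 1681 to 1987 in wild-type FK228 libraries against 3182 to 3995 in wild-type solvent libraries. Summed macrophage markers (10 genes) had 32.4 to 41.7 CPM in heterozygous FK228 libraries against 291 to 427 in heterozygous solvent libraries, and 50.1 to 64.4 in wild-type FK228 libraries against 420 to 512 in wild-type solvent libraries. Summed Schwann cell markers (8 genes) had 164 to 215 CPM in heterozygous FK228 against 313 to 376 in heterozygous solvent libraries. In wild type they had 178 to 207 with FK228 against 316 to 394 with solvent. Summed supporting cell markers (15 genes) had 5114 to 5853 CPM in heterozygous FK228 against 5736 to 7667 in heterozygous solvent libraries. In wild type they had 5394 to 6027 with FK228 against 5019 to 6688 with solvent. None of these markers was at 0 in any group, and their part in the Ctbp2 result was not tested.

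Bsn (chr9:108096022-108190384, minus strand) encodes bassoon, the large scaffold that anchors the ribbon to the active zone and is also found at conventional synapses of neurons. It had 14, 32, 16 and 25 reads in heterozygous FK228 libraries, 2, 1, 0 and 2 in heterozygous solvent libraries, 14, 23, 29 and 42 in wild-type FK228 libraries and 14, 4, 3 and 7 in wild-type solvent libraries. The levels were 1.06 to 2.21 CPM in heterozygous FK228, 0 to 0.140 in heterozygous solvent, 0.795 to 2.38 in wild-type FK228 and 0.168 to 0.633 in wild-type solvent libraries. The library with 0 reads allows up to 0.202 CPM, at 3 reads. Every FK228 library lay above every solvent library, and the FK228 groups, with means of 1.58 ± 0.595 in heterozygous and 1.58 ± 0.663 in wild-type cultures, overlapped.

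FK228 over solvent raised Bsn by a log2 fold change of 4.10 ± 0.62 in heterozygous cultures (edgeR adjusted p = 2.82e-05) and 2.10 ± 0.47 in wild type (4.27-fold, edgeR adjusted p = 0.00129). The summed counts were 87 with FK228 against 5 with solvent in heterozygous cultures, a depth-scaled ratio of 18.6 with an exact 95% interval of 7.67 to 58.7. In wild type they were 108 against 28, a ratio of 4.26 (2.79 to 6.71). The drug effects differed by 2.00, with a 95% interval of 0.27 to 3.74 and an unadjusted p of 0.0261, which did not pass after adjustment over all genes (edgeR adjusted p = 0.814). Between the genotypes in solvent the log2 fold change was -2.004 ± 0.71 (edgeR adjusted p = 0.216). The libraries did not overlap in CPM, but the limit of 0.202 for the 0-read library lies above the lowest wild-type value, 0.168. Wild-type solvent library 1 held 14 of the 28 wild-type solvent reads, and without it the value was -1.545 (adjusted p = 0.428). Without that library and heterozygous solvent library 4, the pair with fewest reads outside genes for their depth, it was -1.15 (adjusted p = 0.610), and with voom -1.41 (adjusted p = 0.579). Between the genotypes with FK228 it was 0.00 ± 0.42. Summed markers of spiral ganglion neurons (16 genes) averaged 707 ± 67.3 CPM in heterozygous FK228 and 527 ± 67.6 in heterozygous solvent cultures, and 957 ± 154 in wild-type FK228 and 705 ± 126 in wild-type solvent cultures (SD, n = 4 each). Of the 16 markers 7 were higher and 3 lower with FK228 in heterozygous cultures, against 23.8% higher and 24.7% lower of all genes. In wild type 5 were higher and 5 lower, against 23.7% and 25.3% of all genes. With spike-in scaling 3 were higher and 5 lower in heterozygous cultures, against 4.71% higher and 62.6% lower of all genes. In wild type that scaling gave 5 higher and 5 lower, against 11.7% and 26.4% of all genes. Between the genotypes in solvent 5 were lower in heterozygous cultures and 0 higher, against 0.823% lower and 1.2% higher of all genes. None of the 16 was at 0, and their part in the Bsn result was not tested.

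Pclo (chr5:14514918-14863459, plus strand) encodes piccolo, the relative of bassoon that is present at ribbons as a short form. It had 2.95, 2.83, 3.99 and 3.54 CPM in heterozygous FK228 libraries, 2.66, 3.54, 1.68 and 1.10 in heterozygous solvent libraries, 3.58, 2.66, 4.77 and 4.13 in wild-type FK228 libraries and 5.38, 4.57, 1.63 and 2.41 in wild-type solvent libraries. The solvent groups were the more scattered and all groups overlapped. The log2 fold change with FK228 was 0.57 ± 0.37 in heterozygous cultures (edgeR adjusted p = 0.220) and 0.11 ± 0.35 in wild type (edgeR adjusted p = 0.825). The 95% intervals of Pclo end at 1.34 in heterozygous cultures and 0.83 in wild type, below the 2.79 and 1.10 at which those of Bsn start.

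Rims2 (chr15:39198261-39684372, plus strand) encodes a RIM protein that gathers calcium channels at the active zone. It had 1.13, 0.758, 1.01 and 1.73 CPM in heterozygous FK228 libraries, 0.419, 1.31, 1.48 and 1.23 in heterozygous solvent libraries, 1.70, 1.51, 0.906 and 1.42 in wild-type FK228 libraries and 0.814, 3.19, 3.20 and 1.90 in wild-type solvent libraries. Wild-type solvent library 1 lay far below the other 3 of its group. Between the genotypes in solvent the log2 fold change was -1.02, with a 95% interval of -1.90 to -0.13 (edgeR adjusted p = 0.336). For heterozygous FK228 against wild-type solvent it was -0.97 ± 0.42 (edgeR adjusted p = 0.0651), and it passed the test, at adjusted p from 0.0106, when wild-type solvent library 1, heterozygous FK228 library 5 or heterozygous solvent library 1 was left out. For FK228 in wild type it was -0.70 ± 0.41 (edgeR adjusted p = 0.165), and without wild-type solvent library 1 it was -0.99 (adjusted p = 0.0336).

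**Figure D3:**
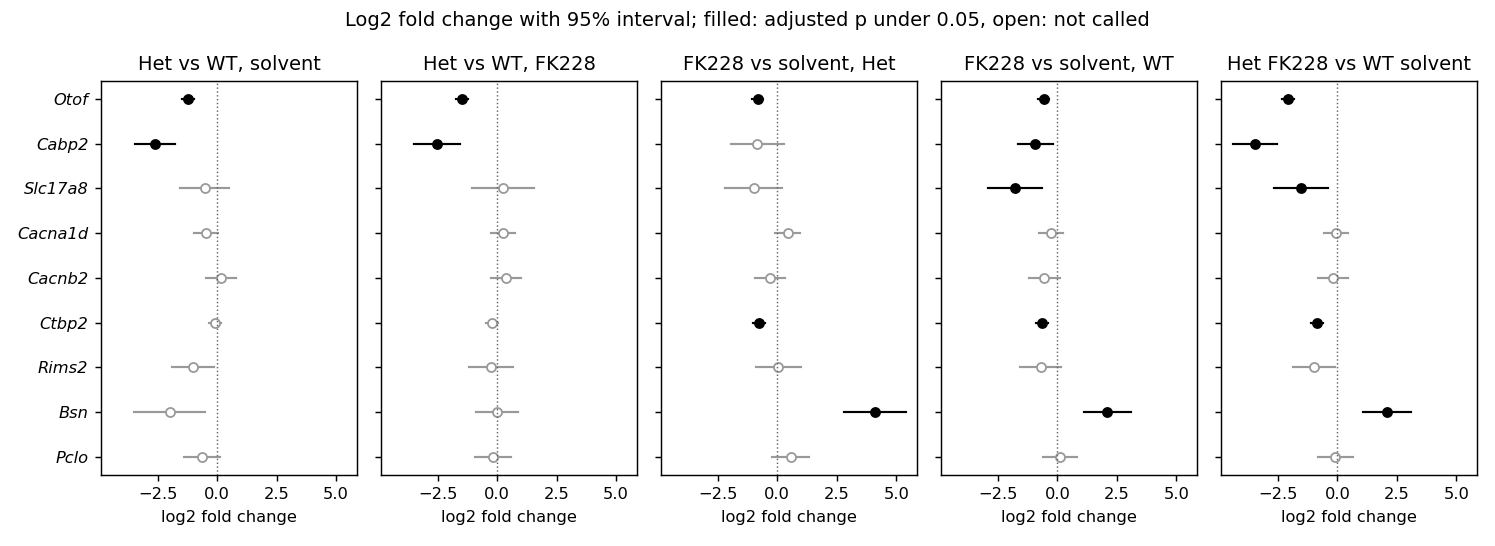
Log2 fold change (horizontal axis) with its 95% interval for the 9 genes in 5 comparisons; filled black marks an edgeR adjusted p under 0.05 and open grey marks no call. Otof lies left of 0 in every panel, Cabp2 has its lowest value, -3.45, in heterozygous FK228 against wild-type solvent, and Bsn lies right of 0 in the 3 panels that compare FK228 with solvent cultures.

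Per kilobase of exon, Otof and Ctbp2 stood above the other members in every group. In heterozygous FK228 cultures Ctbp2 led with 4.01 ± 0.462 CPM per kb, followed by Otof with 2.03 ± 0.232, Cacnb2 with 0.627 ± 0.0558 and Cacna1d with 0.471 ± 0.110, and Cabp2 had 0.187 ± 0.0656. In wild-type solvent cultures Otof had 8.50 ± 1.23 CPM per kb, Ctbp2 7.33 ± 0.880, Cabp2 2.11 ± 0.851, Cacnb2 0.710 ± 0.223, Cacna1d 0.484 ± 0.0664, Slc17a8 0.224 ± 0.04999, Rims2 0.219 ± 0.111, Pclo 0.156 ± 0.0786 and Bsn 0.0223 ± 0.0132 (SD, n = 4). Per kb, Cabp2 lay below both channel subunits in heterozygous FK228 cultures and above both in wild-type solvent cultures. This order depends on the exon lengths used, 1.35 kb for Cabp2, 12.62 for Cacna1d and 13.23 for Cacnb2. In plain CPM, Cabp2 (2.85) lay below Cacna1d (6.10) and Cacnb2 (9.40) in wild-type solvent cultures too.

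The 29 hair cell markers, which hold none of the 9 genes, had medians below 0 in the same 5 comparisons in which Otof was called lower. The median log2 fold change in solvent was -0.65 for the 9 genes, -0.33 for the markers and -0.01 for all genes tested. Against 0.823% lower and 1.2% higher of all genes, 2 of the 29 were lower and 0 higher in heterozygous solvent cultures. The 2 were Pvalb, a calcium buffer (-1.10 ± 0.22, edgeR adjusted p = 0.00994), and Lhfpl5, a part of the mechanotransduction channel complex (-0.77 ± 0.20, edgeR adjusted p = 0.0473). With FK228, Calb2 and Pvalb were lower in heterozygous cultures and 0 of the 29 higher, against 0.928% lower and 1.21% higher of all genes. FK228 lowered 12 and raised 0 of the 29 in heterozygous cultures (median -0.73), against 24.7% lowered and 23.8% raised of all genes. In wild type it lowered 15 and raised 0 (median -0.60), against 25.3% lowered and 23.7% raised of all genes. In the same order the 9 genes had medians of -0.32 and -0.57 and all genes 0.001 and -0.006. In each genotype 6 of the 29 had values above 0, among them Myo7a, a myosin of the hair bundle, in heterozygous cultures (0.20 ± 0.24, edgeR adjusted p = 0.509). Myo6, another myosin of hair cells, stands in the list of release site genes and not among the 29, and is named here after its values were seen. It averaged 342 ± 27.5 CPM in heterozygous FK228 and 234 ± 39.6 in heterozygous solvent cultures (log2 fold change 0.55 ± 0.10, edgeR adjusted p = 0.000200). In wild type it averaged 396 ± 14.5 CPM with FK228 and 284 ± 29.8 with solvent (0.48 ± 0.10, edgeR adjusted p = 0.000648). With spike-in scaling the Myo6 values were -0.16 (adjusted p = 0.257) and 0.33 (adjusted p = 0.0316). Chrna9 and Chrna10, subunits of the acetylcholine receptor of hair cells, were 5.82-fold and 3.51-fold lower with FK228 in wild type. Heterozygous FK228 cultures had 20 of 29 lower and 0 higher than wild-type solvent cultures (median -1.02), against 25.9% lower and 24.9% higher of all genes. With spike-in scaling FK228 lowered 26 of the 29 in heterozygous cultures, against 62.6% of all genes, and 16 in wild type, against 26.4%. Heterozygous FK228 cultures then had 29 of 29 lower than wild-type solvent cultures, against 71.3% of all genes. Summed marker levels were 300 to 353 CPM in heterozygous FK228, 329 to 542 in heterozygous solvent, 400 to 537 in wild-type FK228 and 474 to 694 in wild-type solvent libraries, and no marker was at 0. Calb2 alone was a large part of this sum. It averaged 123 ± 11.7 CPM of 335 ± 23.6 in heterozygous FK228 cultures and 228 ± 35.9 of 484 ± 58.9 in wild-type FK228 cultures.

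Ratios to the markers were taken on the log2(CPM + 0.5) scale, which understates changes of genes near or below 0.5 CPM, so none is given for Cabp2, Slc17a8 or Bsn. Set against the geometric mean of these markers in each library, Otof was lower in heterozygous than in wild-type cultures by 0.91 on the log2 scale in solvent and by 1.16 with FK228, with no overlap of libraries. In heterozygous cultures the log2 ratio of Otof to the markers was lower with FK228 by 0.25. In wild type it was 2.84 ± 0.237 with FK228 and 2.84 ± 0.128 with solvent (SD, n = 4 each). Against the sum of the markers, to which Calb2 adds much, the difference was -0.35. Cacna1d relative to the markers was higher with FK228 in heterozygous cultures by 0.96, with no overlap.

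With the mean marker level as a term in the fit, Otof kept its genotype call in solvent (log2 fold change -1.09, adjusted p = 8.67e-05) and with FK228 (-1.34, adjusted p = 6.39e-06). Cabp2 kept it too (-2.61, adjusted p = 0.0184, and -2.52, adjusted p = 0.0333). For FK228 in heterozygous cultures Otof (-0.54, adjusted p = 0.0234), Ctbp2 (-1.03, adjusted p = 0.000323) and Bsn (4.34, adjusted p = 0.00236) stayed past the threshold. For FK228 in wild type, Otof (-0.29, adjusted p = 0.209), Cabp2 (-0.90, adjusted p = 0.348) and Bsn (2.36, adjusted p = 0.0653) were no longer called, while Ctbp2 (-0.90, adjusted p = 0.00108) and Slc17a8 (-2.88, adjusted p = 0.0223) were. For heterozygous FK228 against wild-type solvent, Slc17a8 (-3.21, adjusted p = 0.0741) and Bsn (2.475, adjusted p = 0.179) were no longer called. Cacnb2 was called lower with FK228 in both genotypes with this term, at -1.48 in heterozygous cultures and -1.77 in wild type. The marker level itself differed between the groups compared, so the term takes up part of each contrast.

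**Figure D4:**
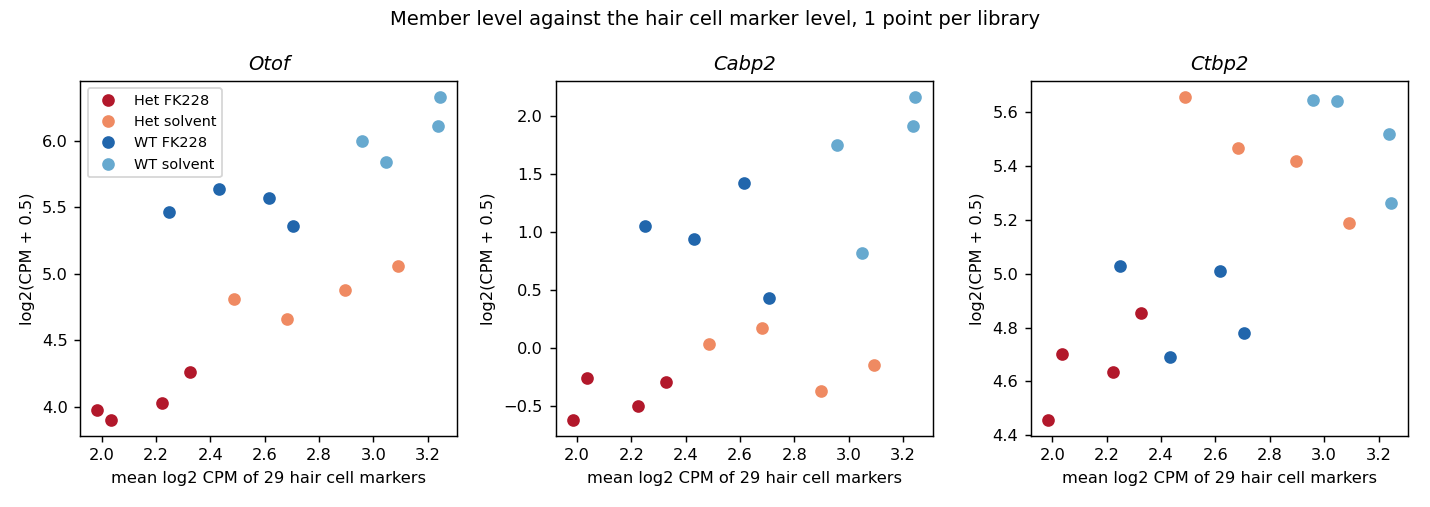
Levels of Otof, Cabp2 and Ctbp2 as log2(CPM + 0.5) (vertical axes) against the mean log2 CPM of 29 hair cell markers (horizontal axis), 1 point per library, coloured by group. At like marker levels the heterozygous libraries lie below the wild-type libraries for Otof, with log2 ratios to the markers lower by 0.91 in solvent and 1.16 with FK228, while for Ctbp2 the solvent libraries of both genotypes share 1 range.

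Other genes of ribbon and conventional release sites were described from a list of 38 symbols, of which 37 were matched and 34 tested. Against 0.823% lower and 1.2% higher of all genes, 2 of the 34 were lower and 0 higher in heterozygous cultures with solvent (median log2 fold change -0.21). These were Cplx1, a complexin of conventional synapses (-4.43 ± 0.37, edgeR adjusted p = 6.16e-07), and Snap25, the plasma membrane SNARE of neurons (-3.25 ± 0.27, edgeR adjusted p = 6.68e-07). Cplx1 had 0.570 ± 0.267 CPM in heterozygous and 12.5 ± 4.44 in wild-type solvent cultures. In the same comparison 5 of 16 spiral ganglion neuron markers were lower and 0 higher (median -0.27). Their part in these results was not tested. With FK228, 4 were lower in heterozygous cultures and 0 higher, against 0.928% lower and 1.21% higher of all genes. The 4 were Cplx1, Cplx2, Snap25 and Wrb, an insertion factor for tail-anchored proteins that otoferlin depends on in zebrafish and mice (-0.51 ± 0.12, edgeR adjusted p = 0.0286).

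FK228 raised 16 and lowered 4 of the 34 in heterozygous cultures (median 0.22), against 23.8% raised and 24.7% lowered of all genes. In wild type it raised 15 and lowered 5 (median 0.18), against 23.7% raised and 25.3% lowered of all genes. With spike-in scaling it raised 5 and lowered 15 in heterozygous cultures (median -0.49), against 4.71% and 62.6% of all genes. In wild type that scaling gave 11 raised and 5 lowered (median 0.04), against 11.7% and 26.4% of all genes. Among those raised were Kif1a, the motor that carries synaptic vesicle precursors (2.26-fold in heterozygous cultures and 1.99-fold in wild type), and Syt7, a calcium sensor of the synaptotagmin family (3.40-fold and 2.79-fold). Cplx2 was lowered to 46.7 ± 2.35 CPM in heterozygous FK228 cultures against 238 ± 7.45 in heterozygous solvent cultures, and to 94.7 ± 6.50 in wild-type FK228 cultures against 277 ± 25.7 in wild-type solvent cultures. Snap25 averaged 22.1 ± 1.72 CPM in heterozygous FK228 and 1.93 ± 0.761 in heterozygous solvent cultures. The drug effect differed between genotypes for Snap25 (2.12 ± 0.35 on the log2 scale, edgeR adjusted p = 0.0429) and Cplx2 (-0.80 ± 0.10, edgeR adjusted p = 0.00328). Compared with wild-type solvent cultures, heterozygous FK228 cultures had 13 higher and 6 lower (median 0.21), against 24.9% higher and 25.9% lower of all genes. With spike-in scaling 1 was higher and 22 were lower (median -0.66), against 3.78% and 71.3% of all genes.

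Over the 16 libraries, Otof and Cabp2 had the closest pattern of any pair among the 9 genes, with a Pearson r of log2 CPM of 0.928. Ctbp2 and Bsn had r of -0.778, and the other pairs lay between -0.406 and 0.616. The genes most like Otof among all tested were Cyp26b1 (0.971), Zbtb21 (0.966) and Pik3c2b (0.963). Pik3c2b was also among the 3 closest to Cabp2 (0.917), after Otof and before Cacng2 (0.915). The closest to Slc17a8 were Prr12 (0.920), Unc13d (0.887) and Fbxl22 (0.877), to Ctbp2 Cytip (0.965), Ptgs2 (0.963) and Mki67 (0.962), and to Bsn Usp8 (0.963), Gng4 (0.949) and Stac2 (0.949). Cacnb2 was most like Ogt (0.902), Rai14 (0.895) and Kat6b (0.888). The closest values were lower for Cacna1d, with Zfp442 (0.781), Zfp322a (0.753) and Drc1 (0.736). They were also lower for Rims2, with Spock2 (0.794), H6pd (0.792) and Lats1 (0.790), and for Pclo, with Lrp8 (0.840), Armc3 (0.793) and Taf1b (0.758). The 16 points share 4 groups and, within a library, its depth, so these values describe the pattern over groups and libraries and carry no test.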

How the data were processed

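Polyadenylated RNA was primed with oligo dT, copied with template switching, tagmented and read as paired ends, as the labels' protocols state. The authors deposited counts of reads per gene for each of the 16 libraries, and a table of normalized signal. The submitters' processing notes name STAR 2.5.2a, DESeq2 and the build GRCm38.p4. The unstranded counts were used. Summary rows, 92 ERCC rows and 22 rows of other spike-ins and transgenes stayed out of library sizes and tests. The summary rows held 21.3% to 30.1% of reads. Each value of the normalized signal times a factor per library was a whole number to within 0.001 reads for 100% of values and equalled the deposited count. Sequences were taken from RefSeq and positions from GENCODE M21 (99.3% of identifiers found).

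Counts were tested with edgeR 4.0.16 in R 4.3.3 (filterByExpr with minimum count 10 and minimum total 15, TMM factors, quasi-likelihood fit of 4 group means to all 16 libraries, 6 contrasts). P-values were adjusted by Benjamini-Hochberg over 17125 genes, with a call at adjusted p under 0.05. Errors of fold changes are SEs, computed back from the log2 fold change and the F statistic of the test. The 95% intervals were built from these SEs with a t quantile and are approximate. CPM per kb used the union of annotated exons. Exact intervals and the limit for 0 reads (3 reads) cover counting error only, since reads carried no molecular identifiers. The procedure was first run on counts simulated from its own fitted spread, with changes set in the heterozygous solvent group only. That run covered genotype in solvent and no other contrast, and it does not check the model itself.

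The 9 genes, the marker lists (127 of 128 symbols matched, 1 by a synonym) and the tests were chosen with earlier results of these data known. All 9 genes were described in every comparison. In each comparison the 4 genes of the release site list and the 3 hair cell markers with the smallest p were candidates for naming, as were the 3 genes with the highest Pearson r to each of the 9. Alternatives were DESeq2 1.42.0, RLE factors, ERCC scaling, no filter, a stricter filter (CPM of at least 1 in at least 4 libraries), fits to the compared groups alone, a replicate block, limma 3.58.1 voom with quality weights, Y-linked transcripts or the hair cell marker level as a term, and each library left out. Chosen after the files were seen were counts recovered from the normalized signal, the share of reads outside genes as a term, and leaving out both libraries with the lowest such share.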

Additional observations from a re-analysis of the deposited data

How the results depend on the processing

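No log2 fold change that passed the test in one of the 9 genes turned its direction under any alternative. The genotype calls of Otof held in all alternatives run, and those of Cabp2 in all but the replicate block with FK228 (adjusted p = 0.105). Of 9 genes, the count called for FK228 in heterozygous cultures was 6 with ERCC scaling and 5 with the share of reads outside genes as a term, against 3. For FK228 in wild type it was 3 with the hair cell marker level as a term, against 5, and for genotype with FK228 it was 5 with ERCC scaling, against 2. For heterozygous FK228 against wild-type solvent it was 9 with ERCC scaling, against 5. For the interaction it was 1 (Otof) with ERCC scaling, against 0, where 4060 of all genes were called lower. Of all genes ERCC scaling called 11524 for FK228 in heterozygous cultures (10717 lower), 12864 for heterozygous FK228 against wild-type solvent (12217 lower) and 12857 for genotype with FK228 (12761 lower). Leaving out 1 library gave 4 to 6 for FK228 in wild type and for heterozygous FK228 against wild-type solvent. The count was 6 without wild-type solvent library 1 in both comparisons and without heterozygous solvent library 1 in the second. It gave 2, 3, 2 and 0 in every such fit for genotype in solvent, FK228 in heterozygous cultures, genotype with FK228 and the interaction.

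Of all genes, 347 were called for genotype in solvent, 550 with DESeq2, 218 with the hair cell term, and 237 to 384 with a library left out. For genotype with FK228 the count was 366, with 638 in DESeq2, 592 with the term for reads outside genes, and 188 to 421 with a library left out (188 without wild-type FK228 library 7). The hair cell term left 5529 of 8297 calls for FK228 in heterozygous cultures, 5449 of 8394 in wild type and 3805 of 8690 for heterozygous FK228 against wild-type solvent; with a library left out these were 7588 to 8466, 7532 to 8604 and 7957 to 8932. The interaction had 4 calls, 16 with DESeq2, 4069 with ERCC scaling, 10 without a filter, 2 with voom, 8 with the term for reads outside genes, 2 without both libraries of the lowest share, and 2 to 6 with a library left out. Counts recovered from the normalized signal gave 347, 8297, 8394, 366, 8690 and 4 calls. The causes of these differences were not tested.

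After the group mean of each gene was subtracted from log2 CPM, replicates of the same number correlated between -0.23 and 0.17. The labels do not say that the numbers pair the pools, and they were not taken to do so. With the replicate block 1 of the 9 genes was called for genotype with FK228, and all genes called were 211 for genotype in solvent, 107 for genotype with FK228 and 0 for the interaction, where 797 had an unadjusted p under 0.05. Slc17a8 was not tested under the stricter filter, and with only the groups compared Slc17a8 (FK228 in heterozygous cultures, genotype with FK228), Cabp2 (FK228 in heterozygous cultures) and Bsn (genotype in solvent) fell under the filter. Depth limits Cabp2, Slc17a8 and Bsn, which had libraries with 4 reads or fewer.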
